A study of Schizosaccharomyces pombe with 4 samples.

Results

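Cryptic unstable transcripts (CUTs) that start next to a protein-coding gene and run away from it, through intergenic sequence, were described in fission yeast with and without Rrp6. From the 2509 CUTs of the deposited table, 371 (14.8%) were taken by position alone. They overlap no gene entry on either strand, less than 50% of their length is covered by any XUT (a transcript that accumulates without the exonuclease Exo2) on the same strand, and their 5′ end lies at most 500 nt upstream of the 5′ end of a gene on the other strand. This gene is called the partner below. Overlap with genes alone left 709 CUTs, the limit on XUT cover left 603, and 232 of these 603 were not divergent from any gene within the limit.

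Total RNA of 2 strains of *Schizosaccharomyces pombe* was compared, a wild-type strain (WT) and a strain in which *rrp6* was deleted (*rrp6*Δ), with 2 libraries each that the labels call biological replicates. No other allele or treatment is given for either strain, and the growth medium of these cultures is not stated beside them. Strand-specific RNA-seq was done after removal of rRNA, with ERCC spike-in RNA added to each sample. Values are the normalized read counts that the authors deposited, in which reads are multiplied by 1 factor per library, and the density used below is such a count over the transcript length in nt. Libraries held between 64913330 and 82419985 reads on all entries, and between 19186 and 98539 reads on the 371 divergent CUTs. Counts on the deleted gene itself were 2352 and 2842 in WT and 7.38 and 8 in *rrp6*Δ.

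Many eukaryotic promoters are transcribed in both directions, with an mRNA made on one side of the nucleosome-depleted region and a short non-coding RNA on the other. The nuclear exosome, with its 3′–5′ exonuclease Rrp6, degrades most of these short RNAs soon after they are made, so they become visible when Rrp6 is missing. Helper complexes such as TRAMP and MTREC bring RNAs to the exosome, and in fission yeast the RNA-binding proteins Mmi1 and Seb1 recognize short motifs in nascent RNA.

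The sequence between the annotated 5′ ends of a CUT and its partner can be read directly. Whether the 2 share a promoter was not tested. In the sequences that follow, letters run 5′ to 3′ on the strand of the CUT, from the base next to the partner's 5′ end. Lower case marks the interval between the 2 transcripts and capitals mark the first 60 bases of the CUT. The partner lies to the left and is read from the other strand. Shown are CUTs with the largest rise or the highest density, and those next to *rec8* and *arp1*, which changed themselves. The letters are from the RefSeq genome ASM294v3, in which 5116 of 5119 coding sequences of the deposited table (99.9%) open with ATG.

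CUT965, divergent from *atg24*, chrI:2754423-2754501, reverse strand: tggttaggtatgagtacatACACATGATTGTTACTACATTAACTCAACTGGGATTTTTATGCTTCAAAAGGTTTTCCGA
CUT593, divergent from *mpg2*, chrII:3729599-3729705, reverse strand: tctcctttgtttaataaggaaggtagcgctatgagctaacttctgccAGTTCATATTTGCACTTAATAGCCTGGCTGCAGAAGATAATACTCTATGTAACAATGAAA
CUT1850, divergent from *rpl402*, chrII:3637727-3637859, forward strand: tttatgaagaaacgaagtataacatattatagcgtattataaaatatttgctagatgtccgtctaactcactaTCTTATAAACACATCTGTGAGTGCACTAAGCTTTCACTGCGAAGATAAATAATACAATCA
CUT1313, divergent from *rpl1702*, chrIII:482862-483091, forward strand: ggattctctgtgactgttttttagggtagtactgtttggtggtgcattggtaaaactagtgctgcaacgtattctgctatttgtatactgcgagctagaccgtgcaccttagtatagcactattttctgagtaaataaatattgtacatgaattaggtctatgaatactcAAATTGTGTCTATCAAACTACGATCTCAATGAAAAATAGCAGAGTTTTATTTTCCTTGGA
CUT668, divergent from *rpl3201*, chrII:4351694-4351809, reverse strand: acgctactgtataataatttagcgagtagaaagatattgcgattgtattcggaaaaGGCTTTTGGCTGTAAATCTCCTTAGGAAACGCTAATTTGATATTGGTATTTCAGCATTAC
CUT1815, divergent from *pmh1*, chrII:3213738-3213803, forward strand: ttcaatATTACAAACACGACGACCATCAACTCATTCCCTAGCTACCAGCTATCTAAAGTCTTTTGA
CUT2294, divergent from *ssu72*, chrI:3177453-3177688, forward strand: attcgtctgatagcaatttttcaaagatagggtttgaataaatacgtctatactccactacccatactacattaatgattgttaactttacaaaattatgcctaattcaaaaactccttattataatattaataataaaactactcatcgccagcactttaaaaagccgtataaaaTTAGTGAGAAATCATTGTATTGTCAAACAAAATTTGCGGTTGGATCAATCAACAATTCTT
CUT454, divergent from *rec8*, chrII:2568696-2568892, reverse strand: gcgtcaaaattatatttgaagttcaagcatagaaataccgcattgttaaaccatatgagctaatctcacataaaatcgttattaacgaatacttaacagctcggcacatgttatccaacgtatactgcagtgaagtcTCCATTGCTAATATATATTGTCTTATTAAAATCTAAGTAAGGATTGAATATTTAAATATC
CUT633, divergent from *arp1*, chrII:4083459-4083632, reverse strand: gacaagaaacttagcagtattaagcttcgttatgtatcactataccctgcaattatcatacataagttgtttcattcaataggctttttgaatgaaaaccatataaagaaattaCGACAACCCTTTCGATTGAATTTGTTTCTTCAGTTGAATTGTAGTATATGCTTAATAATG

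The interval between the transcripts ranged from 6 bases at CUT1815 to 176 bases at CUT2294 in this set. The letters TATAAA occurred once on the CUT strand in the intervals of CUT1850, CUT2294 and CUT633, and in none of the other 6. The interval of CUT1815 is 16.7% G and C, and that of CUT593 is 42.6%.

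Over all 371 members the distance between the 2 annotated 5′ ends had a median of 150 nt (range 1 to 489 nt). Within 200 nt lay 256 of them (69%), with 119 within 100 nt and 137 between 100 and 200 nt, against 56, 32 and 27 in the next 3 steps of 100 nt. The deposited gene ends set this distance. With RefSeq gene ends, which could be matched for 370 members, the median was 187 nt, 346 stayed within 500 nt, 23 lay past it and 1 fell inside the gene. At 79 members another non-coding entry of the same strand ended within 500 nt before the 5′ end, at 52 of them a CUT. Whether transcription starts at the 5′ end of these members was not tested. Just inside the limit are CUT1975 at 489 nt from *cuf1* and CUT675 at 487 nt from *pfl5*, with log2 fold changes of 1.35 and 3.14. Just outside are CUT2214 at 502 nt and CUT2205 at 505 nt, at 3.29 and 3.79. At the limit for XUT cover, CUT1261 (49.8% covered, 3.03) and CUT2068 (48%, 1.47) are inside, and CUT678 (53.6%, 2.43) and CUT271 (61.6%, 2.64) outside.

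**Figure D1:**
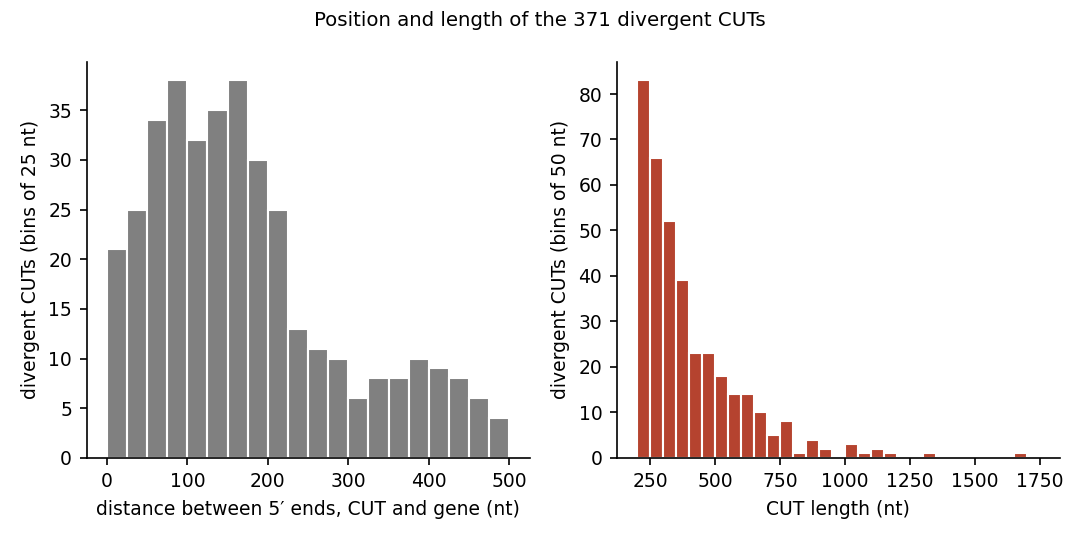
Number of divergent CUTs by the distance in nt between their 5′ end and that of the partner gene (left, bins of 25 nt) and by their length in nt (right, bins of 50 nt). Of 371 members 256 start within 200 nt of the gene, and 286 are shorter than 500 nt.

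The members were short. Their median length was 333 nt (range 200 to 1695 nt, where 200 nt is the minimum by definition), 286 were shorter than 500 nt and 9 longer than 1 kb. Chromosome I carried 159, chromosome II 143 and chromosome III 69, and 174 lay on the forward and 197 on the reverse strand. The 371 CUTs belong to 364 partner genes, so that 7 genes had 2 of them in a row on the same strand. In front of 259 members (69.8%) the next gene lay on the same strand, which places the CUT between 2 head-to-head genes, and in front of the other 112 the next gene faced the CUT. The gap to that gene had a median of 474 nt in the first case and 179.5 nt in the second.

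Overlap with other non-coding entries depended on the annotation. An annotated ncRNA of the deposited table covered at least 50% of 60 members (16.2%) and a non-coding transcription unit (ncTU) 1, which left 310 with neither, and 9 touched a XUT at all. In the RefSeq annotation, which holds more non-coding genes, a long non-coding RNA on the same strand covered at least 50% of 284 members (76.5%). On the opposite strand 134 members overlapped another non-coding entry, among them 85 a CUT.

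In WT the divergent CUTs were close to the floor of detection, and in *rrp6*Δ each of them was measured. Median normalized read counts of the members were 7.07 in WT library 1, 9.47 in WT library 2, 70.6 in *rrp6*Δ library 1 and 77 in *rrp6*Δ library 2. Members without a single read numbered 15 and 10 in the WT libraries and 0 in both *rrp6*Δ libraries. Fewer than 10 reads were found on 219 and 145 members in WT and on 0 in *rrp6*Δ. Median density was 0.0244 normalized reads per nt in WT and 0.201 in *rrp6*Δ.

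**Figure D2:**
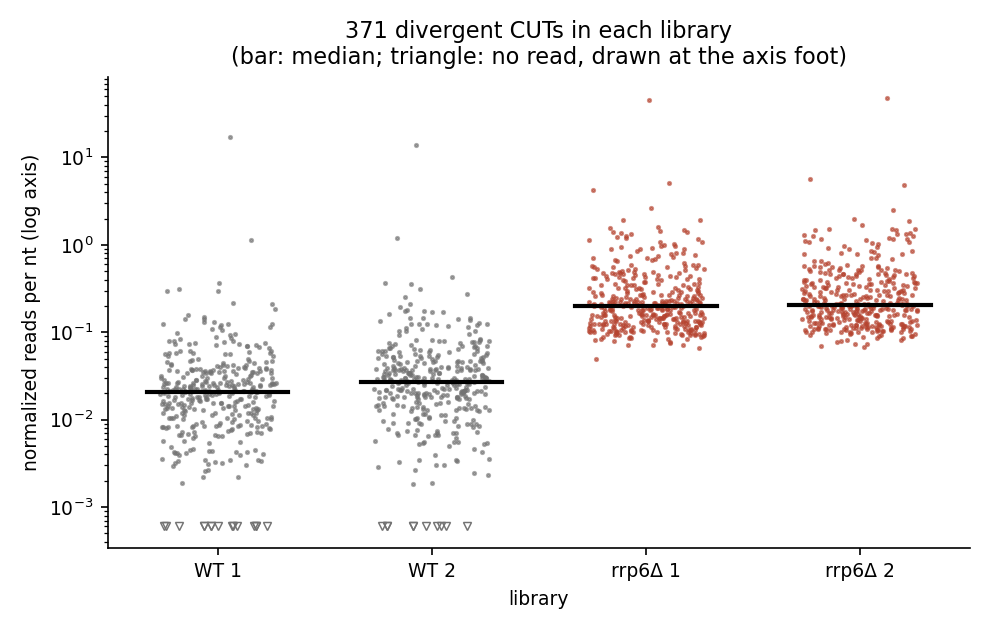
Density of each divergent CUT (normalized reads per nt, log axis) in the 4 libraries, with the median as a bar and members without reads as triangles at the foot of the axis. The medians are 0.0209 and 0.0272 in WT against 0.198 and 0.206 in *rrp6*Δ, and the ranges of the members overlap between the strains.

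The rise itself is not a finding, since the study defined CUTs on these 4 libraries by a more than 2-fold enrichment in *rrp6*Δ, and no test of it is given. For the same reason 99.9% of all CUTs pass the thresholds of the test used below for genes. As a description, the median log2 fold change of the members was 3.12 (quartiles 2.29 and 4.08, range 1.02 to 6.56), and the median ratio of means was 9.35. At all 371 both *rrp6*Δ libraries lay above both WT libraries. The ratio was above 10 at 177 members and below 4 at 63. Between single libraries the median log2 fold change was lowest for WT 2 against *rrp6*Δ 1 (2.84) and highest for WT 1 against *rrp6*Δ 2 (3.39). At 25 members the ratio rests on only 1 to 3 reads in the WT libraries together. CUT1090 and CUT2054 had no WT read in either library, and against a floor of 3 reads over the 2 WT libraries they were at least 36.5-fold and 24.8-fold higher. The median did not move when these 2 were set to that bound (3.12).

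Other CUT classes, chosen by the same definition, differed in level. The median log2 fold change was 2.84 for the 232 intergenic CUTs without a divergent gene, 2.35 for 1373 CUTs that overlap a gene and 1.71 for 533 CUTs covered by a XUT. Their median densities in *rrp6*Δ were 0.166, 0.132 and 0.144, against 0.201 for the divergent ones. These are descriptions of chosen transcripts, and the differences were not tested. Among the 371 members, the log2 fold change was lower where WT density was higher (Spearman −0.65, n = 371), 2 quantities that share the WT counts.

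A single member carried a large part of the signal. CUT2294, 177 nt from *ssu72*, a phosphatase gene for the C-terminal domain of RNA polymerase II, had 10473 and 8569 normalized read counts in WT and 28287 and 29435 in *rrp6*Δ. It made up 56.5% of all normalized counts on the members in WT and 34.6% in *rrp6*Δ. The annotated ncRNA SPNCRNA.893, on the same strand, shares 317 nt with it (51.2% of the CUT) and had 10563 and 8675 in WT and 28315 and 29457 in *rrp6*Δ, so reads of the 2 entries cannot be told apart. Summed over all members, *rrp6*Δ had 4.94 times the signal of WT, and 7.42 times without CUT2294.

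The next in density were much lower. CUT668, 57 nt from the ribosomal protein gene *rpl3201*, had 53.9 and 76.5 normalized read counts in WT and 2202 and 2463 in *rrp6*Δ, a density of 5.37 in *rrp6*Δ. CUT1076, 74 nt from the cyclin-dependent kinase gene *lsk1*, had 472 and 501 against 1759 and 2029 (density 4.57). It was, with CUT2294, the only member above a density of 1 in WT. CUT2153, 200 nt from *sac12*, had 37.1 and 27.7 against 946 and 983 (density 1.95). In *rrp6*Δ, 27 members had a density above 1.

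The largest rises belonged to CUTs almost silent in WT. CUT965 lies 20 nt from *atg24*, a gene of autophagy, and went from 2.65 and 2.91 counts in the WT libraries to 272 and 398 in the mutant libraries (a rise of 6.56 on the log2 scale, standard error 0.30). CUT593 lies 48 nt from *mpg2*, for a mannose-1-phosphate guanyltransferase, and had 0.884 and 5.83 against 244 and 255 (6.27, standard error 0.46). CUT2014, 148 nt from *sss1*, which encodes a subunit of the protein translocation channel, had 2.65 and 6.56 against 329 and 311 (6.01, standard error 0.33). CUT593 rests on few WT reads, and its value was 5.26 without WT replicate 1 and 7.28 without WT replicate 2. The *rrp6*Δ values of each of these 3 lie more than 40 times above its higher WT value.

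CUT1850 and CUT1313 diverge from ribosomal protein genes. CUT1850, 74 nt from *rpl402*, had 1.77 and 5.83 in WT and 253 and 249 in *rrp6*Δ (5.96, standard error 0.37). CUT1313, 171 nt from *rpl1702*, had 5.30 and 9.47 against 479 and 455 (5.90, standard error 0.27). In both, the 2 *rrp6*Δ libraries were close to each other. They lay far above WT, as the choice for the largest rise requires. Without WT replicate 1 or 2, CUT1850 was at 5.26 or 6.66. CUT1815, 7 nt from *pmh1*, which encodes a subunit of the general transcription factor TFIIH, had 5.30 and 18.9 against 658 and 630 (5.89, and 5.03 or 6.74 without WT replicate 1 or 2). CUT400 at *mti3*, a mitochondrial translation initiation factor gene, had 1.77 and 4.37 against 175 and 177 (5.63).

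At the other end, 4 members were near the 2-fold limit of the definition. CUT1068 next to *hpm1* had 64.5 and 70.7 normalized read counts in WT and 133 and 143 in *rrp6*Δ (1.02, standard error 0.21). CUT1074 next to *sut1* had 12.4 and 17.5 against 33.6 and 30 (1.07). CUT1124 next to *plr1* had 17.7 and 13.1 against 23.8 and 48 (1.11), so its 2 *rrp6*Δ libraries differed by more than the lower one differed from WT. CUT329 next to *rid1* had 25.6 and 29.1 against 54.1 and 68 (1.13). After quantile normalization these 4 turned negative, at −0.53, −0.94, −0.91 and −0.75.

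**Figure D3:**
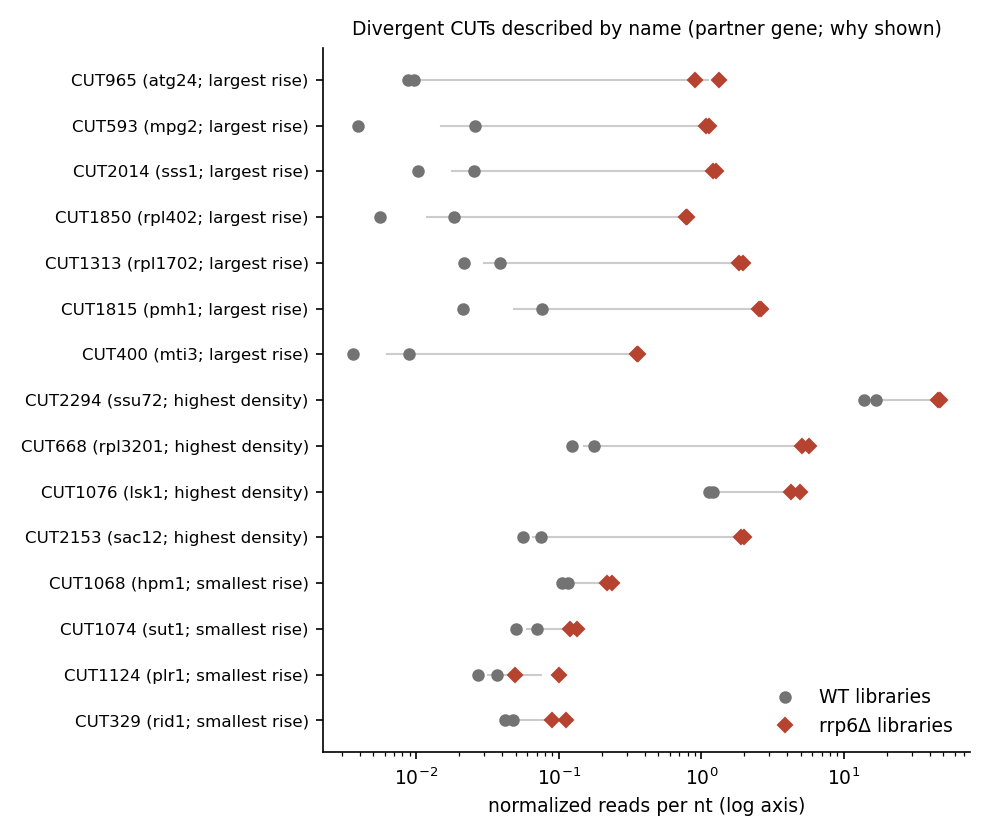
Density (normalized reads per nt, log axis) of 15 divergent CUTs named for the largest rise, the highest density or the smallest rise, in the WT libraries (gray circles) and the *rrp6*Δ libraries (red diamonds), with a line between the strain means. CUT2294 lies to the right of all others in both strains, and at CUT1124 the lower *rrp6*Δ library is close to WT.

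By distance from the gene, the medians of the members lay between 2.61 and 3.29. The median log2 fold change was 3.17 within 100 nt, 3.29 from there to 200 nt, 3.02 to 300 nt, 2.69 to 400 nt and 2.61 to 500 nt, with a Spearman correlation with distance of −0.12 (n = 371). Median density in *rrp6*Δ was 0.230 in the nearest class and 0.180 in the farthest. Ordered by the WT density of the partner, the 93 members next to the lowest genes were at 3.26 and the 93 next to the highest at 3.07, and their median densities in *rrp6*Δ were 0.167 and 0.253.

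Where 2 CUTs ran one after the other from the same gene, their changes could differ. At *prl65*, CUT2220 at 148 nt had 0.884 and 3.64 normalized read counts in WT and 47.6 and 67 in *rrp6*Δ (4.43), and CUT2221 at 472 nt had 18.6 and 23.3 against 70.6 and 61 (1.62). At *ulp1*, which encodes a SUMO protease, CUT430 at 105 nt changed by 4.18 and CUT429 at 381 nt by 1.81. At *SPAC343.21* the order was the other way, with CUT850 at 53 nt at 1.56 and CUT849 at 473 nt at 4.08. At *SPBC12C2.11*, *sfc3*, *sim3* and *SPCC1827.03c* the 2 CUTs were within 0.51 of each other. At *prl65*, *SPBC12C2.11* and *sim3*, the 2 CUTs of the gene overlap the same RefSeq long non-coding RNA. Whether such pairs are parts of 1 transcript was not tested.

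In 26 intervals between head-to-head genes each gene had a divergent CUT of its own, and these 2 CUTs faced each other. In 13 of the 26 the 2 overlapped, by 59 to 507 nt. The log2 fold changes of the 2 CUTs differed by more than 1 in 15 intervals, and their Spearman correlation was 0.11 (n = 26). An example is the interval of *lsk1* and *saf2*, 2152 nt long, with CUT1076 (1.96) and CUT2352 (2.23), which do not overlap. In the interval of *grx1*, a glutaredoxin gene, and *hit1*, CUT1179 (2.39) and CUT2442 (4.59) overlap by 507 nt. Of the 52 genes at these intervals, 1 changed by more than 2-fold, *guf1*, which was lower. In the test described below, 6.39% of all protein-coding genes tested were called higher and 0.591% lower, and the difference was not tested.

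The partner genes can be tested, since neither the position rule nor the definition of CUTs used gene levels. The comparison asks whether these genes change in *rrp6*Δ, where the divergent transcript next to them accumulates. Effects of that transcript and other effects of losing Rrp6 cannot be told apart in this design. All 364 partners had enough reads for the test. Their median WT density was 1.36, against 0.930 for all protein-coding genes. All transcripts entered a single limma fit of log2(normalized read count + 0.729), 0.729 being the smallest value above 0 in the table. A gene was called when it changed more than 2-fold and its p, adjusted by Benjamini-Hochberg, was under 0.05. Fold changes of genes with few reads are understated on this scale, and with 2 libraries a strain the p-values rest on the spread between replicates shared over transcripts.

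Of the 364 partners, 15 rose (4.12%) and 2 fell (0.549%), whereas of all 5073 protein-coding genes tested 6.39% were higher and 0.591% lower. Both shares are close to or below those of all genes. The other 347 did not pass the test, and 289 were within 0.5 of 0 on the log2 scale. Their median log2 fold change was 0.23, against 0.26 for all protein-coding genes, and it turned negative under 4 other scalings (−0.014 to −0.43). The split of calls moved with it, to 8 higher and 13 lower under TMM on every transcript, 10 and 3 under TMM on protein-coding genes, 6 and 20 under DESeq2 size factors and 7 and 5 after quantile normalization. All protein-coding genes shifted too: in the same order 3.39%, 4.57%, 2.82% and 2.31% of them were higher and 3.11%, 1.16%, 5.01% and 3.71% lower. As shares of the 364 partners, 2.20%, 2.75%, 1.65% and 1.92% were higher and 3.57%, 0.824%, 5.49% and 1.37% lower. Across the 371 pairs, the fold change of the CUT and that of its partner had a Pearson correlation of 0.019 and a Spearman correlation of 0.020. Beside the 93 members with the largest rise 3 partners rose, and beside the 93 with the smallest rise also 3. Within 100 nt 2 of 119 partners rose (1.68%), and over 300 nt 5 of 59 (8.47%), a difference that was not tested.

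**Figure D4:**
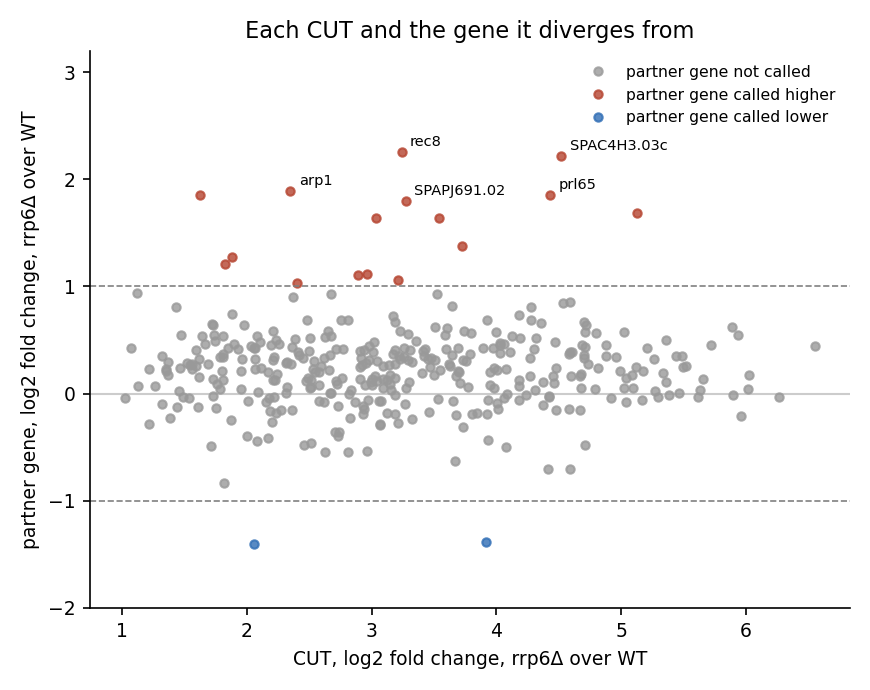
Log2 fold change (*rrp6*Δ over WT) of each divergent CUT on the horizontal axis and of its partner gene on the vertical axis, 1 point per CUT, with dashed lines at 2-fold. Of the partner genes 15 were called higher (red) and 2 lower (blue), and the points show no slope (Spearman 0.020 over 371 pairs).

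Among the partners that rose, *rec8*, which encodes the meiotic subunit of cohesin, had the largest change. WT libraries held 84 and 83.8 normalized read counts of it, *rrp6*Δ libraries 405 and 402 (log2 fold change 2.26, standard error 0.18, limma adjusted p = 9.23e-09). The strains did not overlap, which its choice as a called gene makes likely. Its CUT, CUT454, starts 138 nt away and had 2.65 and 6.56 against 43.5 and 49. Thus its density in *rrp6*Δ was 1.09 times that of *rec8*. *SPAC4H3.03c*, for a glucan 1,4-alpha-glucosidase, had 240 and 235 in WT and 1064 and 1145 in *rrp6*Δ (2.21, adjusted p = 9.96e-10), with CUT2343 at 5.30 and 7.29 against 158 and 159.

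*arp1*, for the actin-like centractin of the dynactin complex, had 167 and 172 in WT and 615 and 644 in *rrp6*Δ (1.89, adjusted p = 1.72e-08). Its CUT633 had a modest change, from 6.19 and 7.29 to 27.1 and 51. *prl65*, the gene with 2 CUTs, had 102 and 150 against 439 and 456 (1.85), and *SPAPJ691.02*, for a yippee-like protein, 244 and 238 against 833 and 849 (1.80). In all 3 genes both *rrp6*Δ libraries lay above both WT libraries, which their choice as called genes makes likely.

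*SPAC2E1P3.05c*, for a protein with a cellulose-binding domain, was the most abundant of the 8 with the largest rises, with 2125 and 2207 in WT and 6864 and 7094 in *rrp6*Δ (1.69, adjusted p = 6.05e-10). Its CUT2273 had 3 reads in both WT libraries together and 143 in *rrp6*Δ, a ratio of 53.8 (95% exact interval 18 to 264, counting error only). *SPCC338.18* had 124 and 106 against 352 and 365 (1.64), and *hsp3101*, for a glyoxalase, 145 and 210 against 523 and 568 (1.64). Both *SPCC338.18* and *hsp3101* lost their call under quantile normalization or DESeq2 size factors, and *prl65* under the former.

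Of the 2 partners that fell, *SPAC8E11.10*, for a sorbose reductase, was the more abundant. Its counts were 20232 and 19839 in WT and 7316 and 7870 in *rrp6*Δ (−1.40, standard error 0.09, limma adjusted p = 1.46e-09). Its CUT2311, 260 nt away, had 14.1 and 19.7 against 77.9 and 66. *guf1*, for a GTPase of mitochondrial translation, had 387 and 490 against 158 and 176 (−1.38, standard error 0.17, adjusted p = 2.5e-06). It borders an interval that holds 2 members, since its own CUT2449 runs toward *not3* and CUT1185, divergent from *not3*, runs toward *guf1*. CUT2449 had 3 WT reads and 61 in *rrp6*Δ (ratio 22.9, 95% exact interval 7.49 to 114), and CUT1185 had 2.65 and 3.64 against 32 and 38. In the sequence between these genes the 2 CUTs overlap by 240 nt.

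Compared per nt, the CUT usually stayed far below its gene. The median ratio of CUT density to partner density was 0.0143 in WT and 0.133 in *rrp6*Δ. The CUT was the denser of the pair for 2 members in WT, those next to *ssu72* and *lsk1*, and for 24 in *rrp6*Δ. At CUT1815 and *pmh1* the ratio in *rrp6*Δ was 8.66, and at CUT1076 and *lsk1* 5.34. Densities of CUT and partner were weakly related in *rrp6*Δ (Spearman 0.18, n = 371) and in WT (0.10).

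Grouped by function, the 14 partners that encode cytoplasmic ribosomal proteins are among the most expressed genes of the cell. Of the 14, 0 rose and 0 fell, and their median was −0.05, as for all 141 ribosomal protein genes (−0.06, 1 higher and 0 lower). *rpl402* had a log2 fold change of −0.21, *rpp202* of 0.46, and *rpl8* was between them. Their 14 CUTs had log2 fold changes from 1.54 to 5.96, a median ratio of means of 17.1 against 9.35 for all members, and a median density in *rrp6*Δ of 0.416. CUT172 at *rpl2702* had 6.19 and 11.7 normalized read counts in WT and 434 and 474 in *rrp6*Δ. CUT395 at *rpl8*, 1185 nt long, had 13.3 and 17.5 against 261 and 281, and the opposite strand holds an annotated snoRNA there.

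Of 6 partners with meiotic names or products 2 rose, *rec8* and *wtf21* (1.12), which is named here after its value was seen and belongs to a repeated family. In that group *rec14*, *psm3* and *mug99* were at 0.04, 0.24 and 0.26 and did not pass. Over all genes of the same names 74 of 183 were higher. Of 15 transporter genes 3 rose, named after their values were seen: *SPBC1271.10c* (1.28), *agp3* (1.21) and *SPAC1039.01* (1.06), the latter 2 for amino acid transport. Over all 190 transporter genes 22 were higher and 6 lower. The transporter partners of highest WT density did not pass, with *aat1* at −0.71, *pcl1* at 0.05 and *zrt2*, a zinc transporter gene, at 0.32.

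In the remaining groups 0 partners were called, where few calls were made over all genes too: 7 of 116 transcription factor genes were higher and 1 lower, 6 of 94 kinase genes higher and 0 lower, 2 of 103 mitochondrial protein genes higher and 0 lower, and 2 of 92 chaperone genes higher and 1 lower. The 11 transcription factor genes had a median of 0.08, with *zip1* at 0.11, *tos4* at −0.19 and *fep1*, the iron-sensing repressor gene, at 0.06. The 8 protein kinase genes were at 0.31, with *ksp1* at 0.23, *ssp1* at 0.33 and *ppk9* at 0.29. The 7 genes of mitochondrial proteins were at 0.20, with *mrpl19* at 0.20, *mrp10* at −0.45 and *SPBC21C3.04c* at 0.20. The 7 chaperone genes were at 0.06, with *sks2* at −0.14, *ssc1* at −0.18 and *aha1* at 0.06. Partners for tRNA synthetases numbered 0.

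The gene ahead of the CUT, toward which it is transcribed, was tested in the same fit. Of 357 genes ahead 355 had enough reads, and 20 rose (5.63%) while 1 fell, *guf1*, against 6.39% and 0.591% of all genes. Under the same 4 scalings the split was 8 higher and 5 lower, 12 and 3, 8 and 15, and 7 and 12, beside all-gene shares of 3.39% higher and 3.11% lower, 4.57% and 1.16%, 2.82% and 5.01%, and 2.31% and 3.71%. Where the gene ahead lay on the strand of the CUT, 8 of 252 rose (3.17%). Where it faced the CUT, 12 of 110 rose (10.9%). The difference between these shares was not tested. Among the 12 were *Tf2-1* (1.09) and *Tf2-11* (1.05), copies of a repeated retrotransposon, named after their values were seen. Of the same-strand genes whose start lay within 200 nt of the end of the CUT, 1 of 60 rose.

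Among the same-strand genes, *mug45*, a gene up-regulated in meiosis, lies 295 nt past the end of CUT1850. Its counts were 96.3 and 152 in WT and 1084 and 1124 in the mutant (a rise of 3.18 on the log2 scale, standard error 0.19, limma adjusted p = 3.96e-10). The partner of that CUT, *rpl402*, was at −0.21, so the 2 genes of 1 interval differed. *SPAC513.02*, 315 nt past CUT2270, had 68.9 and 80.1 against 395 and 404 (2.42), and *crp79*, for a poly(A)-binding protein, 118 and 177 against 554 and 584 (1.97). Their partners *eft201* and *mug99* were at −0.26 and 0.26.

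*SPAC869.01*, for an amidase, and *pma2*, for a proton ATPase, lie 3877 and 1599 nt past their CUTs. *SPAC869.01* had 1 read in both WT libraries together and 53 in *rrp6*Δ (ratio 59.8, 95% exact interval 10.3 to 2406). *pma2* had 4.42 and 6.56 normalized read counts against 38.6 and 41 (2.72, adjusted p = 5.56e-06), a call lost after quantile normalization.

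Facing their CUT were *urg1*, *SPBC1652.01* and *SPAC1039.02*, all 3 well expressed. *urg1*, which responds to uracil, had 1433 and 1506 in WT and 9995 and 10913 in *rrp6*Δ (2.83, standard error 0.11, adjusted p = 2.96e-12), and the gap to CUT875 is 801 nt. *SPBC1652.01*, for a transcription factor, had 1135 and 1077 against 5265 and 5524 (2.29), with CUT659 ending 60 nt away. *SPAC1039.02*, for a phosphatase, had 6780 and 6553 against 23276 and 24152 (1.83), and CUT1239 ends 20 nt from it. In each the 2 strains were separated by far more than the libraries of a strain. Since these genes were named for their change, the separation is no further evidence.

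Both neighbors of a CUT were called in 2 cases, named after their values were seen. Around CUT2343, the partner *SPAC4H3.03c* rose by 2.21 and the facing gene *SPAC4H3.04c* by 1.13. Around CUT1706, the partner *SPBC23G7.10c* rose by 1.03 and the gene ahead, *mag2*, by 1.58. The counts there were low. *SPBC23G7.10c* had 38.9 and 51.7 in WT and 104 and 82 in *rrp6*Δ. *mag2* had only 3.53 and 8.01 against 12.3 and 25 (standard error 0.48), so its change is imprecise.

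The genes of the pathway that removes these RNAs were read in the same fit. Of 29 genes listed for the exosome, its cofactors and other decay factors, 27 were matched and tested. Only *rrp6* was called, at −8.26 on the log2 scale (standard error 0.19), 0 were called higher, and the median was 0.22. The largest rises among the 27 stayed short of 2-fold but had a limma adjusted p under 0.05. These were *red1* at 0.96 (adjusted p = 2.01e-06) and *red5* at 0.71, both listed for MTREC, and *mmi1* at 0.61. Without a fold minimum, 2368 of the 5073 protein-coding genes tested also rose at that adjusted p. Under DESeq2 size factors the median over all fitted transcripts moved by −0.66, so the size of such rises depends on the scaling. In the other direction *exo2* was at −0.23, with an adjusted p above 0.05. *dis3*, the other exonuclease of the exosome, had 3603 and 3965 normalized read counts in WT and 3656 and 3992 in *rrp6*Δ. Among the 27 were 3 genes ahead of members, each at a head-to-head interval. CUT741 (4.61) runs toward *rrp4*, a cap subunit gene at 0.42, CUT1466 toward *cti1*, a cofactor gene at 0.37, and CUT388 (2.07) toward *pab2*, for a nuclear poly(A)-binding protein, at 0.08.

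The base composition of the members was AT-rich. The median CUT was 30.7% G and C (quartiles 29 and 32.7), its partner gene 37.3% and the interval between them 32.4%, against 36.1% for the 3 chromosomes. In 353 of 371 pairs the CUT had the lower share. The rule takes CUTs from outside gene entries, which hold coding sequence, so a lower share in the CUT is likely by that choice. In the first 200 nt, the median was 31% for divergent CUTs, 31.5% for other intergenic CUTs, 34.5% for CUTs overlapping a gene and 35% for partner genes. Around the 5′ end of the partner genes G and C was 30.7% in the bin centered 90 nt before it, 34.9% just before and 37.4% just after it. In the same bins around the 5′ end of the CUTs it was 33.8%, 32.3% and 31.4%.

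**Figure D5:**
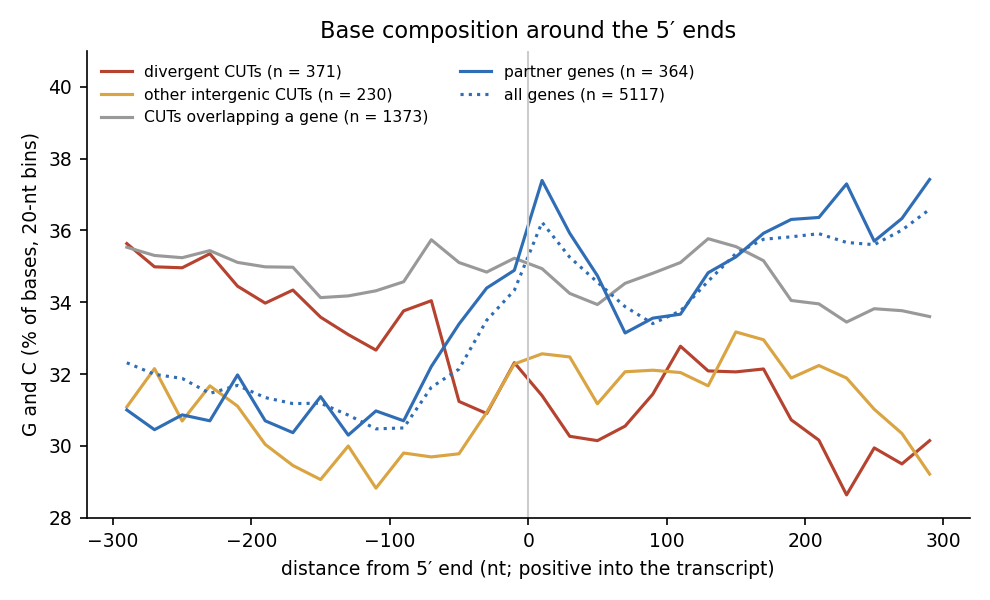
Share of G and C (% of bases in 20-nt bins, axis from 28%) from 300 nt before to 300 nt after the 5′ ends of divergent CUTs, other CUTs, partner genes and all genes, each on its own strand. Genes have a peak just inside the transcript (37.4% for partner genes) that the divergent CUTs (31.4%) do not show.

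Motifs were counted by their letters alone. TATAAA, the TATA box, was searched on both strands from 250 nt before to 50 nt after the gene's 5′ end, and 47.5% of partner promoters held it against 50% of all genes. The letters TGACGT, bound by Atf1, were in 4.12% and 5.78%, and runs of AAAAAAAA in 23.1% and 22.6%. CAGTCACA, the HomolD box of ribosomal protein promoters, was in 12 of 364 partner promoters and in 2.48% of all.

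On the RNA strand, 38.5% of the divergent CUTs held TNAAAC (the Mmi1 motif UNAAAC as DNA) in their first 200 nt, against 38.7% of other intergenic CUTs, 37.9% of CUTs overlapping a gene and 32.7% of partner genes. GTA, the core of the Seb1 motif, occurred 16.8 times per kb in divergent CUTs, 16.7 in other intergenic ones, 14.8 in those overlapping a gene and 13.9 in partner genes. It was more frequent outside the divergent CUTs, at 20.1 per kb in the 200 nt before them and 20.4 in the intervals between CUT and gene. AATAAA, the poly(A) signal, was in 28.8% of divergent CUTs, 26.1% of other intergenic CUTs, 22.8% of those overlapping a gene and 18.7% of partner genes. The opposite strand of the first 200 nt of divergent CUTs held TNAAAC in 39.6% and AATAAA in 34.2%. TNAAAC and AATAAA are rich in A and T, as the divergent CUTs are, and these shares are descriptions without a test.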

How the data were processed

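RNA-seq values of 4 libraries, 2 of WT and 2 of *rrp6*Δ, were analysed. By the methods, reads were mapped with TopHat (tool named in the submitters' processing notes), and densities were scaled to ERCC spike-ins. The signal values that the authors deposited are normalized read counts, whole reads times a library factor (0.884, 0.729, 0.820 and 1; 100% of values whole after division, tolerance 1e-06), and densities, these counts per nt. Columns of sums per strain were not used. The methods name ASM294v2 and HTSeq for RNA-Seq scaled to a budding yeast spike-in. The sources used here do not say whether they also apply to this ERCC-scaled table, and its coordinates were checked against RefSeq ASM294v3.

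Of 21852 entries, 10204 pieces of coding sequence and 28 repeated pseudogene entries were left out of the fit, and 11620 remained. Members, gene lists and motifs were chosen with earlier results of these data known. limma 3.58.1 (R 4.3.3) with a trend was fitted on log2(normalized read count + 0.729) to the 11227 transcripts that passed filterByExpr of edgeR 4.0.16 on recovered reads (minimum count 10), with Benjamini-Hochberg adjustment over all of them. Since the values are scaled, this test was used and edgeR's quasi-likelihood test was an alternative. On simulated counts for this comparison, over 11227 transcripts, all 50 of the transcripts raised 4-fold were called, with 47 of the 50 raised 2.5-fold, 1 of the 50 raised 1.5-fold, 45 of the 50 set to 0.4 of their level and 0 of the 11027 left as they were.

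Named members were the 8 with the largest log2 fold change among those above the median average expression with both *rrp6*Δ libraries above WT, the 6 of highest *rrp6*Δ density, the 4 of smallest change and 2 on each side of each limit. Of the 8, 1 is not reported here. Named genes were those called (the 8 with the largest change where over 12 were called in a direction), at most 3 partners a group by WT density, and called genes of the exosome list. Product names were matched from RefSeq for 363 of 364 partners. The alternatives were other scalings (library totals, TMM, quantile, DESeq2 1.42.0 size factors), edgeR and DESeq2 with the deposited factors, other filters, pseudocounts and limits on distance or XUT cover, a replicate block and leaving out each library. Intervals on single ratios are exact (Clopper-Pearson, 95%) and cover counting error only. Python 3.11.15, pandas 2.3.3 and scipy 1.17.1 were used for summaries.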

Additional observations from a re-analysis of the deposited data

How the results depend on the processing

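The scaling of the libraries moved fold changes and turned the balance of calls. The median over the fitted transcripts moved by −0.54 (log2) under TMM computed on every transcript, by −0.25 under TMM computed on protein-coding genes, by −0.66 under DESeq2 size factors, by −1.02 under quantile normalization and by −0.067 under library totals. The median of the partner genes (0.23) became −0.31, −0.014, −0.43 and −0.044 under the first 4, close to that of all protein-coding genes under each (−0.28, 0.01, −0.40 and −0.078). Under TMM on every transcript 8 partners rose and 13 fell, 8 genes ahead rose and 5 fell, 172 protein-coding genes rose and 158 fell, and the median member was at 2.62. Under TMM on protein-coding genes 10 partners rose and 3 fell, 12 genes ahead rose and 3 fell, and 232 protein-coding genes rose and 59 fell. With DESeq2 size factors 6 partners rose and 20 fell, 8 genes ahead rose and 15 fell, 143 protein-coding genes rose and 254 fell, and the median member was at 2.56. After quantile normalization 7 partners rose and 5 fell, 7 genes ahead rose and 12 fell, 117 protein-coding genes rose and 188 fell, the median member was at 1.13, 203 members stayed past 2-fold, and CUT1068, CUT1074, CUT1124 and CUT329 turned to −0.53, −0.94, −0.91 and −0.75. Which scaling is closest to the cells was not tested, nor was the cause of these shifts.

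With no fold minimum 164 partners rose and 27 fell, 156 genes ahead rose and 19 fell, and 2368 protein-coding genes rose and 359 fell. With a limit of 200 nt 256 members remained, 9 of their partners rose and 1 fell, and 0 genes ahead fell, as also with a limit of 300 nt, since fewer members enter. A minimum count of 50 kept 245 members, and a pseudocount 10 times larger put the median member at 2.23. Leaving out each library in turn gave 1 to 2 genes ahead that fell. Without the most abundant member, an alternative chosen after the data were seen, the median of the members was 3.13. With edgeR on the recovered reads 15 partners rose and 2 fell, and 322 protein-coding genes rose and 30 fell. A replicate block changed no count of calls (15 partners rose and 2 fell). The labels do not say whether same-numbered libraries share a batch. The correlation of their deviations (0.011) cannot decide it with 2 libraries a strain.

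In WT 219 and 145 of the members had fewer than 10 reads, so their WT levels and ratios are imprecise, and the p-values rest on 2 libraries a strain.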
